A study of Mus musculus with 12 samples.

Results

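Genes of the macrophage lineage were followed in RNA-seq of cultures labelled as bone marrow mesenchymal stem cells (MSCs), the stromal precursors of bone and fat cells. The 37 genes form a list of myeloid surface receptors, signaling proteins, subunits of the phagocyte oxidase and transcription factors, each named in the rule that defines the group. All 37 were found by symbol among the 54532 genes of the deposited table, and all 37 were among the 12871 genes tested. The cells were flushed from femurs, tibiae and humeri of 4-week-old C57BL/6 mice, grown on plastic to passage 3 and induced for 5 days before RNA was taken. Control cells (WT in the labels) came from Chd7 fl/fl mice, in which loxP sites flank exon 2 of Chd7, the gene of a chromatin remodeling enzyme, and no Cre was present. Knockout cells (KO in the labels) came from Prx1-cre;Chd7 fl/fl mice, which carry the same floxed alleles and a Cre driven by a promoter of early limb mesenchyme. Osteogenic medium held β-glycerophosphate at 10 mM, dexamethasone at 10 nM and ascorbic acid at 50 µM, and adipogenic medium held isobutylmethylxanthine at 0.5 µM, insulin at 10 µg/ml and dexamethasone at 1 µM. Genotype and medium gave 4 groups of 3 libraries each, and nothing in the labels says that the libraries of a group came from separate mice, so p-values measure the spread between libraries, which may be technical.

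Macrophages descend from blood stem cells, a lineage apart from the limb mesenchyme in which Prx1-cre is active, and they adhere to plastic together with stromal cells when mouse marrow is cultured. They live on CSF1, a growth factor that stromal cells secrete and that binds the receptor CSF1R, under the control of transcription factors such as PU.1, the product of Spi1. Their surface carries receptors for antibody and lipids that signal through the adaptors FcRγ (Fcer1g) and DAP12 (Tyrobp), and they make the complement protein C1q, lysosomal enzymes and an oxidase that produces superoxide.

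Promoters are shown for Lyz2, the member with the highest level, and for 2 sets of neighbouring genes whose values differed in direction or size between genotypes. These are Itgam and Itgax, which are next to each other on chromosome 7, and C1qb and C1qc, which lie side by side on chromosome 4 next to C1qa. Each line gives the 250 bases before the RefSeq transcription start, read 5′ to 3′ on the strand of the gene in build GRCm38.p6. Lyz2 is at chr10:117282273-117282522 on the minus strand, Itgam at chr7:128062390-128062639 and Itgax at chr7:128129300-128129549 on the plus strand, and C1qb at chr4:136886201-136886450 and C1qc at chr4:136892915-136893164 on the minus strand. Capitals mark a match on either strand to GAGGAAG (a site type bound by PU.1 and related ETS factors), TGAGTCA (the AP-1 site) or TGTGGT (the core of a RUNX site).
Lyz2: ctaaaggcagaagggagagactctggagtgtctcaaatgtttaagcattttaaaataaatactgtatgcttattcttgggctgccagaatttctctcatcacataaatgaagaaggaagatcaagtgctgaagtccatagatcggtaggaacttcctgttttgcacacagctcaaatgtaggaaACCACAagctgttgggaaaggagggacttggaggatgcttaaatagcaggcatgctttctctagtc
Itgam: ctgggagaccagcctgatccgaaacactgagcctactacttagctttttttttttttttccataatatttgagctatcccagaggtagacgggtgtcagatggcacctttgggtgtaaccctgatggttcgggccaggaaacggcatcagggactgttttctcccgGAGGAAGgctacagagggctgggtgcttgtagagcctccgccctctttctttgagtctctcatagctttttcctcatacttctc
Itgax: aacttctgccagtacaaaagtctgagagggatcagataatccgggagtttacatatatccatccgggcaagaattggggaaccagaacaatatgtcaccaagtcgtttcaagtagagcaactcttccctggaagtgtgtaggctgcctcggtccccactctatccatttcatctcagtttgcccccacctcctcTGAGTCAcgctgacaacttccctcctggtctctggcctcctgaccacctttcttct
C1qb: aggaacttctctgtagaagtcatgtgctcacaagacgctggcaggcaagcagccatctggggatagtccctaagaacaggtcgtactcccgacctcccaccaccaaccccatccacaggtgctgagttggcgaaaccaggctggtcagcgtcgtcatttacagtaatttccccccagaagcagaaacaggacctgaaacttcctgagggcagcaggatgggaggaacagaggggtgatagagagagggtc
C1qc: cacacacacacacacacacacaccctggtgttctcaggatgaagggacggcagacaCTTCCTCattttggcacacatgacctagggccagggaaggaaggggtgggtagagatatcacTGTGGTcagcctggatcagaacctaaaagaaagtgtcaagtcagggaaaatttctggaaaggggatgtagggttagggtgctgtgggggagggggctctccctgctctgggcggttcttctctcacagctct

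The Itgam promoter held the ETS letters and the Itgax promoter the AP-1 letters, the Lyz2 promoter held the RUNX core on its minus strand, C1qc held an ETS and a RUNX match, and C1qb held none of the 3. A promoter was found for 27 of the 37 genes. GAGGAAG was in 7 of these 27 (C1qc, Fcgr1, Fcgr3, Itgam, Laptm5, Trem2 and Vav1), that is 25.9%, and in 12.0% of all 27025 genes with a promoter of this length. A gene counted as a match if any of its promoters held the letters. TGAGTCA was in 3 (Cd68, Cd84 and Itgax), 11.1% against 5.16% of all these genes. TGTGGT was in 6 (C1qc, Cd53, Cd84, Cybb, Gpnmb and Lyz2), 22.2% against 15.9%. A match describes the letters of this window and not the binding of a factor.

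The macrophage genes were among the most abundant transcripts of all 12 libraries. Values are FPKM, fragments per kilobase of gene with the depth divided out, so levels of different genes can be compared per length. Lyz2 (ENSMUSG00000069516), which encodes the lysozyme of myeloid cells, ranked between 1 and 5 of all genes in every library. The 37 genes together made up 6.50% to 6.72% of the summed FPKM in the control libraries and 6.66% to 6.86% in the knockout libraries of the osteogenic groups. In the adipogenic groups their share was 6.95%, 4.92% and 6.31% in control libraries 1 to 3 and 4.54%, 3.98% and 3.97% in the libraries labelled knockout. Lyz2 held much of this share. Without it the other genes made up 3.60% to 3.68% in control and 3.14% to 3.25% in knockout osteogenic libraries, the reverse order, and 2.98%, 3.08% and 2.52% in control against 2.86%, 2.68% and 2.65% in knockout adipogenic libraries, which overlapped. In 12-library means, 3 of the 37 (Lyz2, C1qb and Gpnmb) exceeded 1000 FPKM, 18 reached 100 and 36 reached 10, with Itgax the exception at 6.84. Between 17 and 25 of them were among the 500 genes with the highest FPKM of a library. Of the 37, 36 were at or above 1 FPKM in all libraries, and Itgax fell short once, at 0.925 in control adipogenic library 1. In bulk RNA of a mixed culture, fewer macrophages and less of an RNA in each macrophage cannot be told apart.

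The label of the cultures was checked against markers of other cell types. Of 17 mesenchymal stromal markers, 11 were at or above 1 FPKM in all libraries, led by Col1a1 at 587 to 1073 and Itgb1 (CD29) at 317 to 412. Thy1, the gene of CD90, lay between 0.206 and 1.03 FPKM, and Lum was under 1 in every library. No sorting step is described for the cells used for RNA, although CD45, CD31, CD29 and CD90.2 antibodies were used in flow cytometry in the study. Defining T and NK cell markers (Cd3e, Cd3d, Cd3g, Cd8a, Nkg7 and Ncr1) were listed at 0 throughout, and 9 of the 11 on that list were under 1 FPKM, with Cd4 and Il7r above it and a list sum of 13.5 to 25.4. In addition 8 of 9 B cell, 7 of 8 erythroid, 6 of 7 mast cell and all 7 dendritic cell markers stayed under 1 FPKM. Osteoclast markers were mixed. Of 10, 4 stayed under 1 FPKM (Calcr, Ocstamp, Dcstamp and Oscar) and 5 were at or above 1 FPKM in all libraries. Neutrophil markers were at or above 1 FPKM in all libraries for 3 of 12 genes, with Mpo, Elane, Ltf and Ly6g under 1 and S100a9 listed at 0. Depth was even, with 17490797 to 21093450 fragments on genes per library. The targeted gene Chd7 was at 2.64 to 2.77 FPKM in control and 2.03 to 2.35 in knockout osteogenic libraries (log2 difference -0.20, standard error 0.0787, limma adjusted p = 0.160). In adipogenic medium it was at 1.81 to 2.26 in control libraries and 2.03 to 2.48 in those labelled knockout (0.09, standard error 0.0787, limma adjusted p = 0.428). A value for the whole gene does not check the deletion of exon 2, and the libraries are therefore named by their labels.

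**Figure D1:**
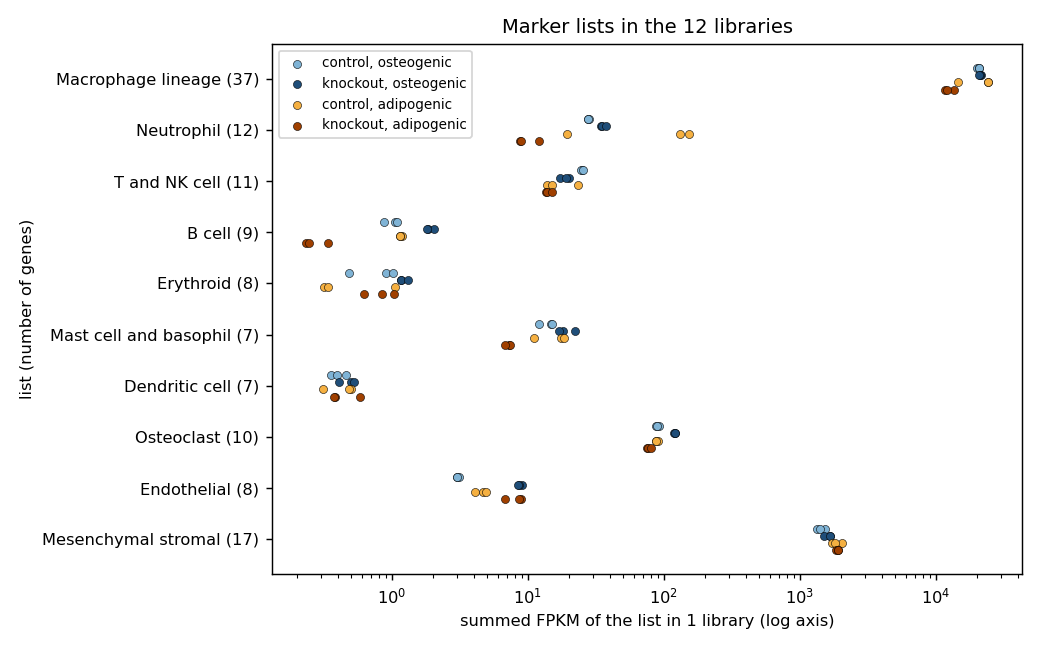
Each point is the summed FPKM (log axis) of a marker list in 1 library, colored by group, for the macrophage lineage genes and 9 lists of other cell types with their number of genes. The macrophage lineage sums lie between 11761 and 24307 FPKM in all 12 libraries, above every other list, and the neutrophil list reaches 154 in a control adipogenic library.

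Agreement between libraries differed by medium. In osteogenic medium the highest library of a group exceeded the lowest by a median factor over the 37 genes of 1.05 in control and 1.06 in knockout libraries. In adipogenic medium this factor was 1.92 in control and 1.25 in knockout libraries, and it reached 10.3 and 3.74 for Cd14, a co-receptor for bacterial lipopolysaccharide. Control adipogenic library 2 stood apart: for 29 of 37 genes it lay nearer to the mean of the osteogenic control libraries than to the mean of the other control adipogenic libraries. It was more than 1.5-fold below both of the others for 17 genes and more than 1.5-fold above both for 6 (Itgax, Cd84, Trem2, Cd68, Lgals3 and Gpnmb). Knockout adipogenic library 1 was more than 1.5-fold above both others of its group for 9 genes (Adgre1, Fcgr2b, Cd14, Ms4a7, Cybb, Ncf4, Ptpn6, Rac2 and Aif1). Counts in adipogenic medium are therefore given with and without these libraries. For knockout against control, values of single genes are also given without control adipogenic library 2 where it changed a call. Between media and for the interaction, its effect is mostly given as counts. These libraries were picked out by their values for these same genes. Calls made without them therefore describe the remaining libraries and are not independent support.

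**Figure D2:**
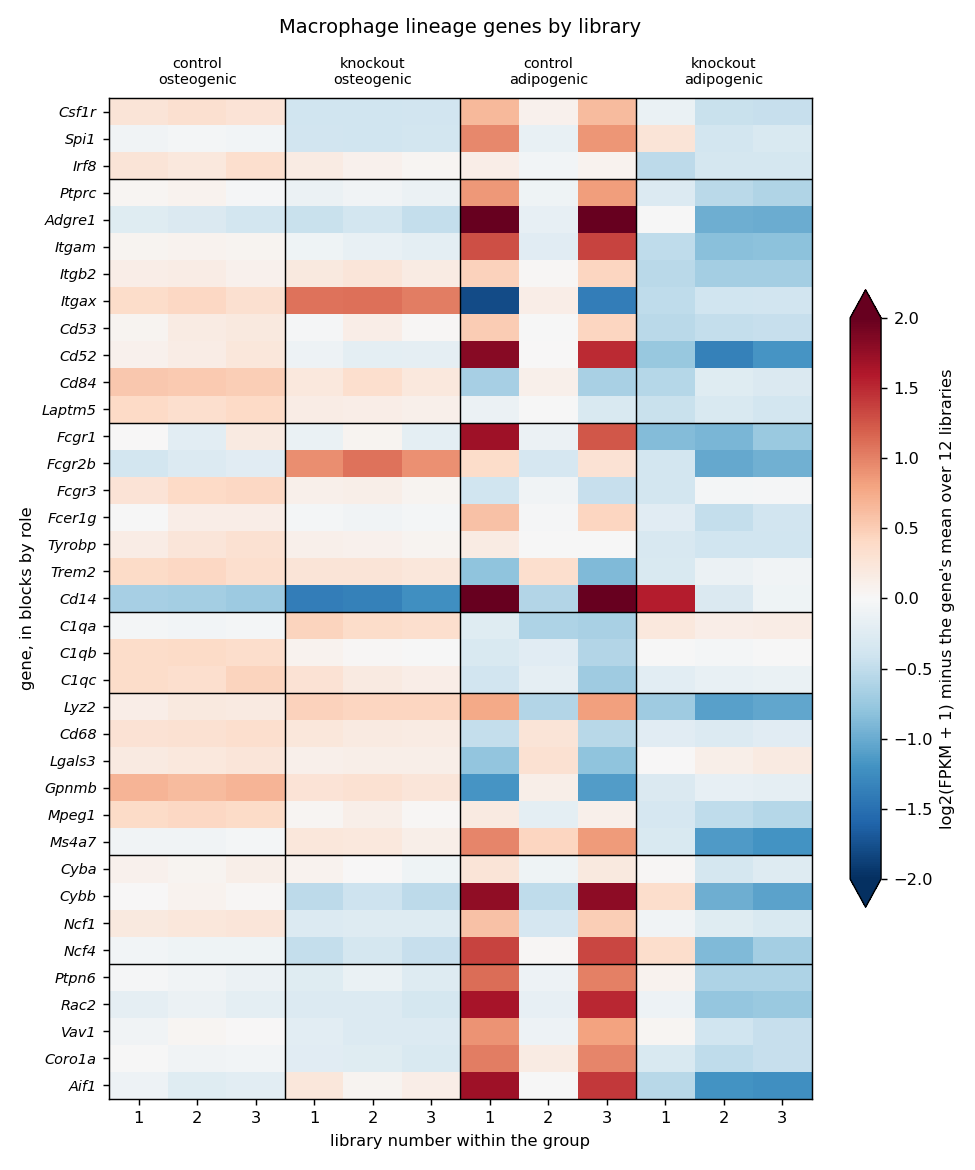
The heat map gives log2(FPKM + 1) of each of the 37 genes in each of the 12 libraries, minus the mean of that gene over the 12 libraries, with genes in blocks by role and colors ending at 2 in either direction. The 3 libraries of each osteogenic group look alike, and control adipogenic library 2 differs from control adipogenic libraries 1 and 3 in most genes.

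Knockout was first compared with control in osteogenic medium, which asks whether macrophage transcripts differed with genotype under bone-inducing conditions. Of the 37 genes, 2 were higher in knockout libraries (Fcgr2b and C1qa) and 3 were lower (Csf1r, C1qb and Mpeg1), at an adjusted p under 0.05 in a limma fit over all 12 libraries. Thus 5 of 37 were called, beside 9.09% of all tested genes, of which 4.94% were higher and 4.15% lower. The median difference over the 37 genes was -0.15 on the log2(FPKM + 1) scale, and -0.01 over all tested genes. Without regard to the test, the 3 knockout libraries lay all above the 3 controls for 7 genes and all below them for 26, and 4 overlapped, while 44.3% of all tested genes did not overlap, 21% higher and 23.2% lower. With only the 6 osteogenic libraries in the fit, whose spread is small, 31 of the 37 were called, 6 higher and 25 lower, beside 26.6% of all genes. Without control adipogenic library 2 and knockout adipogenic library 1 together, 29 were called, 6 higher and 23 lower, beside 28.3%. Where no other fit is named, p-values of single genes in osteogenic medium are of the 12-library fit. That fit pools in the wider spread of the adipogenic libraries. Leaving out any 1 osteogenic library from the 12-library fit reduced the calls to 1 or 2, beside 4.08% to 5.17% of all tested genes.

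Csf1r (ENSMUSG00000024621), the receptor through which CSF1 keeps macrophages alive, was lower in knockout libraries. It was at 296, 307 and 299 FPKM in control libraries 1 to 3 and at 186, 187 and 188 in knockout libraries, which did not overlap. The log2 difference was -0.68 (standard error 0.137, limma adjusted p = 0.0136). Spi1, which encodes PU.1, was at 76.7, 78.6 and 77.6 against 61.8, 60.5 and 62.4 FPKM, and Irf8, a second transcription factor of the lineage, at 19.8 to 21.6 against 17.4 to 19.0. Both lay lower in all 3 knockout libraries without passing the test over 12 libraries (limma adjusted p = 0.514 and 0.134). In the fit of 6 libraries both were called lower, Spi1 with a limma adjusted p = 0.000359 and Irf8 with 0.0317.

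Among the antibody receptors, Fcgr2b and Fcgr3 lay on opposite sides. Fcgr2b (ENSMUSG00000026656), the inhibitory receptor for IgG, was at 14.4, 15.4 and 15.9 FPKM in control and 36.8, 41.1 and 36.3 in knockout libraries. Every knockout library was above every control library, by a log2 difference of 1.27 (standard error 0.201, limma adjusted p = 0.00385), and the call held in all 15 alternatives tried. Fcgr3, an activating IgG receptor whose gene adjoins it apart from Fcgr4, was at 254, 276 and 278 in control and 224, 227 and 218 in knockout libraries (-0.27, standard error 0.113, limma adjusted p = 0.174). The 2 genes are similar in sequence and how the authors assigned fragments between them is not stated, so a split of fragments between them is a source of uncertainty. The high-affinity receptor Fcgr1 overlapped between the groups, at 24.2 to 32.1 and 24.4 to 29.3 FPKM. The adaptors Fcer1g (423 to 466 against 407 to 414) and Tyrobp (742 to 823 against 692 to 719), the lipid receptor Trem2 (112 to 117 against 103 to 106) and Cd14 (23.7 to 24.9 against 14.8 to 16.5) all lay lower in every knockout library, and none passed the test over 12 libraries.

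The 3 chains of C1q did not move together. C1qa (ENSMUSG00000036887) was at 603, 601 and 609 FPKM in control and 847, 804 and 786 in knockout libraries, a log2 difference of 0.43 (standard error 0.0914, limma adjusted p = 0.0181). C1qb was at 1632, 1655 and 1627 in control and 1326, 1288 and 1259 in knockout libraries (-0.34, standard error 0.0758, limma adjusted p = 0.0242). The calls of C1qa and C1qb were kept in 7 and 5 of 15 alternatives, and the groups did not overlap for either gene. C1qc lay between them in direction and size, at 822, 806 and 869.9 in control and 778, 719 and 699 in knockout libraries (-0.19, limma adjusted p = 0.356). Per length, C1qa was below C1qc in each osteogenic control library, at a ratio of 0.700 to 0.746, and above it in each knockout library, at 1.09 to 1.13. The encoded chains are assembled in equal number into the C1q molecule.

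Lyz2 was at 8957, 9355 and 9234 FPKM in control and 11249, 11033 and 11056 in knockout libraries, with no overlap and a log2 difference of 0.28 (standard error 0.301, limma adjusted p = 0.657). In the fit of the 6 osteogenic libraries Lyz2 was called higher (limma adjusted p = 0.00201). Its close copy Lyz1 is the next gene on chromosome 10, and fragments shared by the 2 could have been counted for either. Mpeg1, which encodes a pore-forming protein of phagosomes, fell from 699, 712 and 703 to 549, 580.2 and 547 FPKM, a log2 difference of -0.33 (standard error 0.0906, limma adjusted p = 0.0467), and this call was kept in 6 of 15 alternatives. The lysosomal and lipid-handling genes Gpnmb (1632 to 1699 against 1249.9 to 1307), Cd68 (877 to 909 against 805 to 839) and Lgals3 (868 to 903 against 817 to 829) lay below control in every knockout library and did not pass the test over 12 libraries. Ms4a7, a surface gene of tissue macrophages, was at 61.4 to 62.6 in control and 70.2 to 75.4 in knockout libraries.

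The integrin genes that mark myeloid cells also differed in direction. Itgax, which encodes CD11c, was at 7.59, 7.89 and 7.33 FPKM in control and 13.1, 13.2 and 12.4 in knockout libraries (0.69, standard error 0.372, limma adjusted p = 0.307). Itgam, the adjacent gene, which encodes CD11b, was at 20.4, 20.5 and 20.4 against 18.4, 17.6 and 16.9 (-0.20, standard error 0.337, limma adjusted p = 0.789). Neither pair of groups overlapped, and the ratio of Itgax to Itgam was 0.359 to 0.384 in control and 0.710 to 0.748 in knockout libraries. Itgb2, the β chain shared by both integrins, was at 216, 219 and 210.5 against 226, 234 and 221. Adgre1, which encodes F4/80, overlapped between groups at 197 to 215 and 183 to 198. Subunits of the phagocyte oxidase lay lower in knockout libraries, Cybb at 86.4 to 89.7 against 59.2 to 63.9, Ncf1 at 75.1 to 77.1 against 53.7 to 54.3 and Ncf4 at 29.8 to 30.3 against 22.5 to 24.5, whereas Cyba overlapped at 436 to 456 and 396 to 443. None of the 4 was called over 12 libraries.

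**Figure D3:**
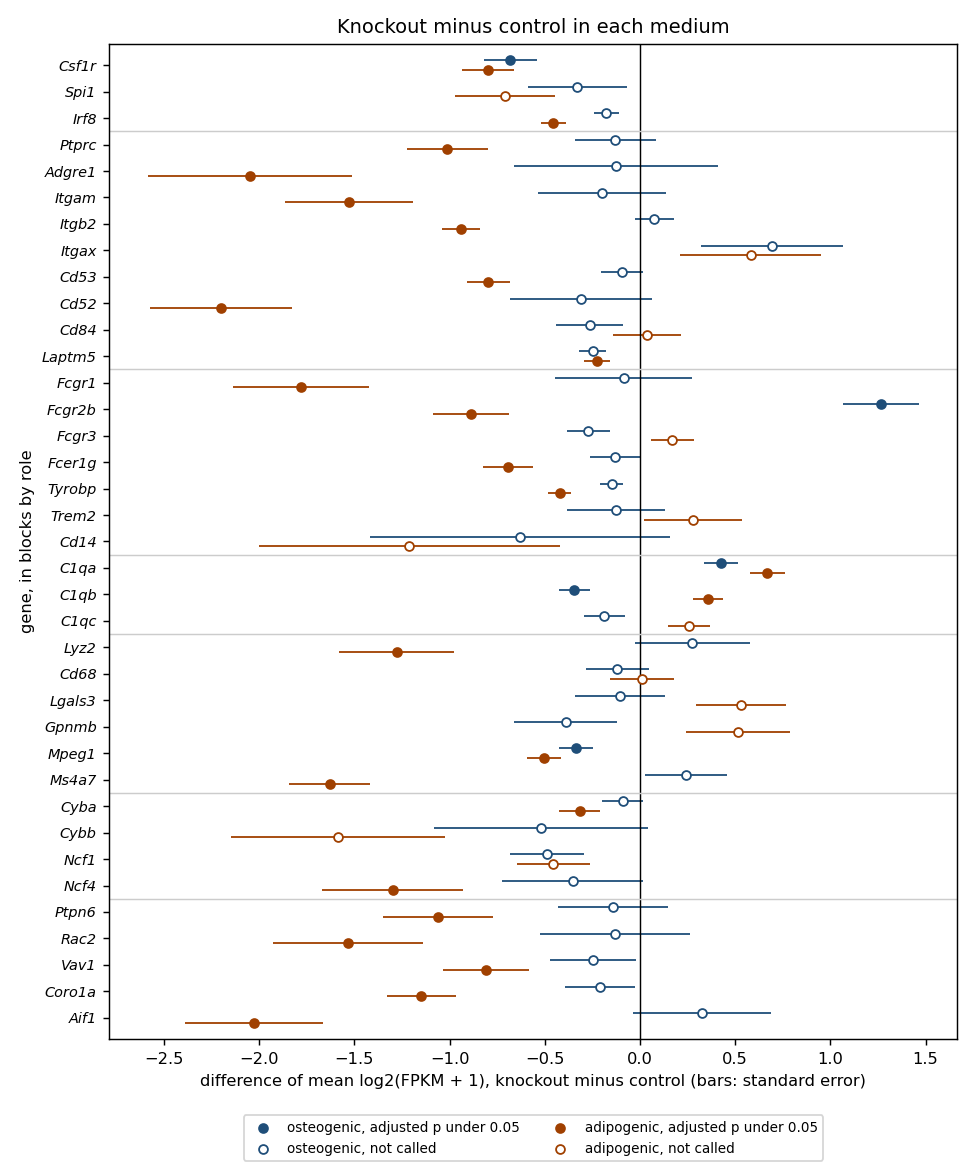
Points give the difference of mean log2(FPKM + 1), knockout minus control, for each gene in osteogenic (blue) and adipogenic (orange) medium, with bars for the standard error of the limma fit over 12 libraries and filled points for an adjusted p under 0.05. In adipogenic medium 23 filled points lie left of 0 and 2 (C1qa and C1qb) to the right, and in osteogenic medium 3 lie left and 2 (Fcgr2b and C1qa) right.

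The same comparison in adipogenic medium asks whether the genotypes differed under fat-inducing conditions. Here 23 of the 37 genes were lower where the label was knockout, and 2 were higher, the complement genes C1qa and C1qb. These 25 of 37 calls stand beside 33.2% of all tested genes, of which 16.7% were higher and 16.5% lower. The median difference was -0.80 over the 37 genes and -0.01 over all tested genes. Of the 7 roles, all 5 genes of cytosolic signaling, 7 of 9 leukocyte surface genes, 4 of 7 receptors and adaptors, 3 of 6 lysosomal genes, 2 of 4 oxidase genes and 2 of the 3 genes for CSF1R, PU.1 and IRF8 were lower. The libraries labelled knockout lay all below the controls for 16 genes and all above them for 2, and 19 overlapped, against 38.6% of all tested genes without overlap, 20.2% higher and 18.4% lower.

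Control adipogenic library 2 set much of the spread. Without it all 37 genes were called, 10 higher and 27 lower, beside 51.2% of all tested genes. The 25 genes called with all libraries kept their direction and their call, and none of their log2 differences moved by over 1.5 times. The 12 genes newly called were Cybb, Cd14, Spi1 and Ncf1, which were lower, and Itgax, Gpnmb, Lgals3, Trem2, C1qc, Cd84, Fcgr3 and Cd68, which were higher. Without knockout adipogenic library 1 the count was 26, 2 higher and 24 lower, beside 29.6%. Without both libraries, 36 were called, 10 higher and 26 lower, beside 51.9%. With only the 6 adipogenic libraries in the fit 11 were called, 1 higher and 10 lower, beside 13% of all tested genes. They were C1qa, which was higher, and Csf1r, Irf8, Itgb2, Cd53, Cd52, Tyrobp, Mpeg1, Ms4a7, Coro1a and Aif1. The other 14 calls were lost there, among them Adgre1 (limma adjusted p = 0.107), Lyz2 (0.0884), Itgam (0.0746) and Fcgr1 (0.0565). Unless stated otherwise, p-values of single genes below are of the 12-library fit, which pools in the smaller osteogenic spread. Without control library 1 or knockout library 3 the count was 18, beside 23.8% and 21.4%. The scale between libraries mattered for all genes: rescaling each library to the same sum (TPM) raised the median of all tested genes in this comparison to 0.14 and the share of calls that were higher from 50.4% to 78.4%. Of the 37 genes, 22 were still called under TPM, 2 higher and 20 lower, beside 32.3% of all tested genes.

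Neutrophil markers moved with part of the macrophage genes between libraries in adipogenic medium. Their summed level was 19.5 to 154 FPKM in control and 8.69 to 12.1 in the libraries labelled knockout, and 27.7 to 28.1 and 34.5 to 37.7 in osteogenic medium. S100a8 was at 65.8, 2.48 and 86.0 FPKM in control adipogenic libraries 1 to 3 and at 1.22 to 1.99 in those labelled knockout. All 3 tested genes of the 12 on the list, of which Mmp8 was the highest with 28.6, 8.87 and 35.0 against 1.87 to 2.26, were lower there, beside 16.5% of all tested genes. Control libraries 1 and 3, high for S100a8 and Mmp8, were also those high for Adgre1, Cd14 and Cybb. Control library 2 was more than 1.5-fold below both of them for 17 of the 37 genes. It was more than 1.5-fold above both for 6, Itgax, Cd84, Trem2, Cd68, Lgals3 and Gpnmb. Of the 12 genes on the list, 8 were under 1 FPKM in all libraries, Mpo, Elane, Ltf and Ly6g among them, and S100a9 was listed at 0. The part of neutrophils in these results was not tested.

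Of the leukocyte surface genes 7 of 9 were lower. Adgre1 was at 1171, 227 and 1136 FPKM in control libraries 1 to 3 and at 255, 129.6 and 127 in the libraries labelled knockout. Control library 2 lay below knockout library 1, so the groups overlapped, and the log2 difference was -2.05 with all libraries (standard error 0.535, limma adjusted p = 0.0156) and -2.83 without control library 2. Cd52, a glycopeptide on the surface of leukocytes, was at 113, 31.6 and 90.7 against 18.3, 11.7 and 13.3 FPKM. All 3 control libraries were above all 3 labelled knockout, and the log2 difference was -2.20 (standard error 0.371, limma adjusted p = 0.0017). Ptprc, the gene of the pan-leukocyte antigen CD45, was at 23.0, 11.3 and 22.4 against 9.86, 8.01 and 7.63 (-1.01, standard error 0.211, limma adjusted p = 0.00559), again without overlap. Itgb2 fell from 272, 200.1 and 267 to 135, 122 and 123, a log2 difference of -0.94 (standard error 0.101, limma adjusted p = 0.000124). Its partner Itgam was at 49.3, 16.5 and 51.5 against 13.5, 10.5 and 10.6 (-1.53, limma adjusted p = 0.00696). Itgax stood against these, at 0.925, 6.31 and 1.55 FPKM in control and 3.66, 4.04 and 4.12 in the libraries labelled knockout, so that control library 2 was the highest and control libraries 1 and 3 the lowest of the 6 (0.58, limma adjusted p = 0.253). Without control library 2 the log2 difference of Itgax was 1.15 and it was called higher (limma adjusted p = 1.16e-05). Cd84, not called with all libraries (0.035), was also called higher without it (0.29, limma adjusted p = 0.0148).

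Csf1r was lower in adipogenic medium also, at 386, 263 and 383 FPKM in control and 226, 182 and 178 in the libraries labelled knockout. The groups did not overlap, and the log2 difference was -0.80 (standard error 0.137, limma adjusted p = 0.00186). Irf8 fell from 18.7, 16.3 and 17.8 to 11.5, 13.1 and 13.1 (-0.46, limma adjusted p = 0.000662). Spi1 was at 158, 72.3 and 149.9 against 96.1, 61.9 and 65.2, overlapped and was not called (-0.71, limma adjusted p = 0.0609), while without control library 2 it was called lower (-1.07, limma adjusted p = 0.000226). The difference of Csf1r was called in all 15 alternatives in adipogenic medium and in 12 of 15 in osteogenic medium.

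The Fc receptors and adaptors that were called were all lower. Fcgr1 was at 93.9, 25.8 and 68.4 FPKM in control and 15.1, 14.4 and 16.5 in the libraries labelled knockout (-1.78, standard error 0.359, limma adjusted p = 0.00448), and every control library was above. Fcgr2b, higher in knockout libraries in osteogenic medium, was at 24.6, 14.7 and 23.3 against 14.4, 8.81 and 9.20 here (-0.89, standard error 0.201, limma adjusted p = 0.00756). Control library 2 exceeded knockout library 1 by 14.7 to 14.4, and the other libraries were further apart. Both adaptors were lower in every library labelled knockout, Fcer1g at 639.9, 419.6 and 573 against 364, 306 and 326 (-0.69, limma adjusted p = 0.00322), and Tyrobp at 748, 663 and 666 against 536, 507 and 505 (-0.42, limma adjusted p = 0.000643). Fcgr3 (0.17) and Trem2 (0.28) were not called with all libraries, and both were called higher without control library 2 (0.29 and 0.68, limma adjusted p = 0.0228 and 1.73e-05). Cd14 was at 269, 26.2 and 267 against 121, 32.4 and 37.8 FPKM, the widest spread of any of the 37, and was not called (-1.21, limma adjusted p = 0.262). Without control library 2 it was called lower (-2.31, limma adjusted p = 0.00149).

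C1qa and C1qb were both higher in the libraries labelled knockout. C1qa was at 524, 407 and 396 FPKM in control and 719, 682 and 693 in knockout libraries, with no overlap and a log2 difference of 0.67 (standard error 0.0914, limma adjusted p = 0.000518). C1qb was at 1022, 1085 and 845 against 1268, 1237 and 1259.8, also apart (0.36, standard error 0.0758, limma adjusted p = 0.00709). C1qc was at 488, 561 and 388 against 551, 570.4 and 576, with control library 2 below knockout library 2 and above knockout library 1 (0.26, limma adjusted p = 0.0981), and it was called higher without that control library (0.38, limma adjusted p = 0.00474). C1qa had the most positive difference of the 3 chains in both media. C1qb and C1qc had a negative difference in osteogenic and a positive one in adipogenic medium. Of them, only C1qb was called in both media with all libraries in the fit.

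Lyz2 was at 13878, 5456 and 14411 FPKM in control and 5010.3, 3845 and 3986 in the libraries labelled knockout. All controls were above, although library 2 only just, and the log2 difference was -1.28 (standard error 0.301, limma adjusted p = 0.00991). Ms4a7 fell from 128, 87.1 and 117 to 52.3, 28.8 and 27.5 (-1.63, standard error 0.212, limma adjusted p = 0.000408). Mpeg1 was lower as in osteogenic medium, at 470 to 605 against 360 to 423 (-0.50, limma adjusted p = 0.00243). Gpnmb, Lgals3 and Cd68 were not called and did not share this order. Gpnmb was at 466, 1151 and 485 against 867, 938 and 934, and Lgals3 at 442, 945 and 437 against 769, 824 and 866, so control libraries 1 and 3 were the lowest and control library 2 the highest of the 6 for both genes. Without control library 2 both were called higher, with log2 differences of 0.94 and 0.90 (limma adjusted p = 3.21e-07 and 5.73e-07), as was Cd68 (0.27, limma adjusted p = 0.000278). These genes are among those by which that library was seen to stand apart, so their p-values without it follow in part from that choice.

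The cytosolic genes were lower together. Aif1, an actin-binding protein of macrophages, was at 64.2, 19.1 and 52.4 FPKM in control and 12.7, 7.83 and 7.56 in the libraries labelled knockout (-2.03, standard error 0.361, limma adjusted p = 0.00233). Rac2, a small GTPase of blood cells that activates the oxidase, was at 178, 49.9 and 161 against 52.4, 32.5 and 33.3 (-1.53, limma adjusted p = 0.0145), with control library 2 under knockout library 1. Coro1a, an actin regulator, was at 123, 67.5 and 119 against 48.3, 41.9 and 43.4 and did not overlap (-1.15, limma adjusted p = 0.00122). The phosphatase gene Ptpn6 and the exchange factor gene Vav1 were lower by log2 differences of -1.06 and -0.81 (limma adjusted p = 0.0184 and 0.0207), with control library 2 under knockout library 1 for both. Of the oxidase genes, Ncf4 (-1.30, limma adjusted p = 0.0226) and Cyba (-0.32, limma adjusted p = 0.0458) were lower. Cybb, the catalytic subunit, was at 295, 60.2 and 297 against 110.1, 43.0 and 40.1 and was not called (-1.58, limma adjusted p = 0.0531), and Ncf1 was not called (-0.46). Both were called lower without control library 2 (-2.34 and -0.75, limma adjusted p = 0.000302 and 7.16e-06).

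**Figure D4:**
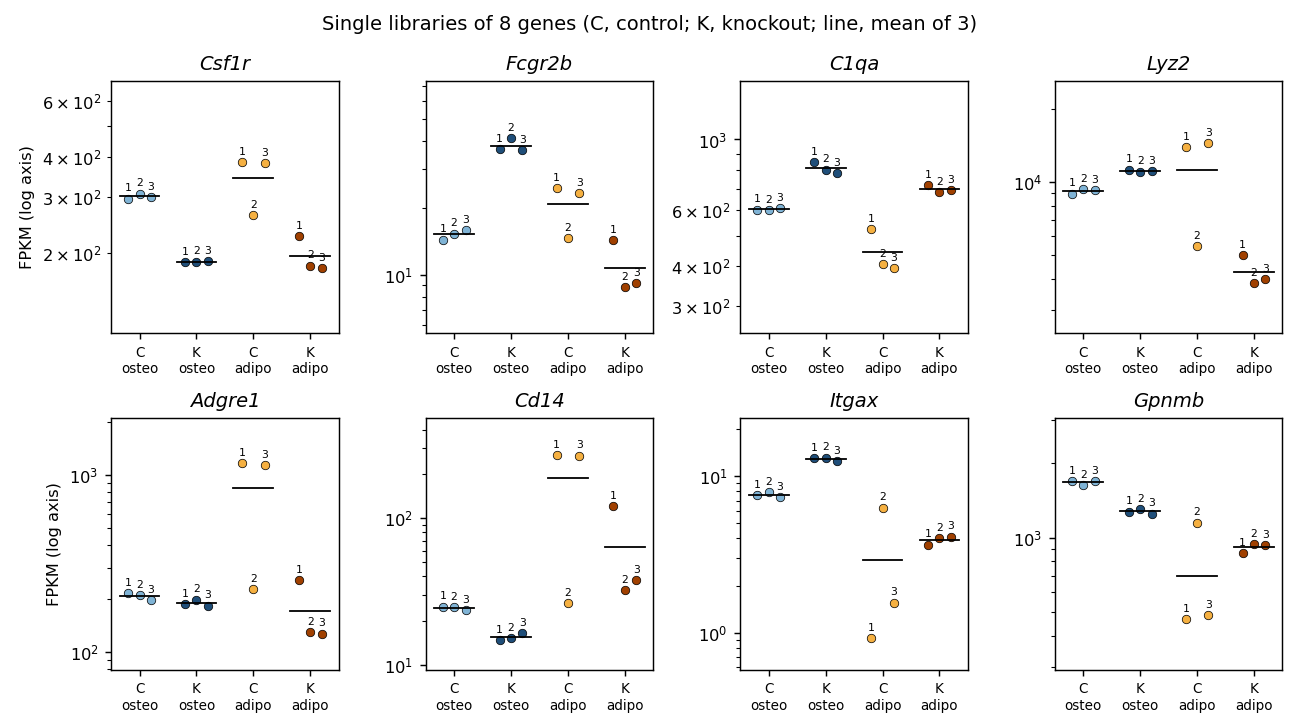
Each panel gives the FPKM (log axis) of 1 gene in the 12 libraries, numbered within their group, with a line at the mean of 3. Control adipogenic library 2 lies apart from libraries 1 and 3 in 7 of the 8 panels, with C1qa the exception, and the osteogenic libraries lie close together.

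Whether the genotype difference itself depended on the medium was tested as the interaction. It was called for 11 of 37 genes, 10 more negative in adipogenic medium and 1, C1qb, more positive, beside 20.4% of all tested genes, 10.9% more positive and 9.58% more negative. For Fcgr2b the difference went from 1.27 in osteogenic to -0.89 in adipogenic medium, a change of -2.15 (standard error 0.284, limma adjusted p = 0.00074). For C1qb it went from -0.34 to 0.36, a change of 0.70 (standard error 0.107, limma adjusted p = 0.00213). With all libraries in the fit, Fcgr2b and C1qb were the genes of the 37 called in opposite directions in the media. With only the 6 adipogenic libraries in the fit, neither was called in adipogenic medium (limma adjusted p = 0.0742 and 0.0806). The osteogenic call was kept in 15 of 15 alternatives for Fcgr2b and in 5 of 15 for C1qb. The interaction was called in all 20 alternatives for both genes. Lyz2 changed by -1.55, Aif1 by -2.35, Ms4a7 by -1.87 and Itgb2 by -1.02, each with a positive difference in osteogenic medium that was not called and a negative one in adipogenic medium that was. Csf1r differed by -0.12 between the media with a standard error of 0.194, and its interaction was not called (limma adjusted p = 0.696), nor was it without control adipogenic library 2 (-0.30, limma adjusted p = 0.0567). The interaction was called for 33 genes without control adipogenic library 2, beside 42.3% of all tested genes. It was called for 35 without this library and knockout adipogenic library 1, beside 45.7%, and for 11 without the latter alone, beside 19.5%. Without any other single library it was called for 6 or 7, beside 13.8% to 16.6%.

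The media were then compared within each genotype. These comparisons share their libraries with those above and are not independent of them. In control libraries 4 genes were higher in adipogenic medium (Adgre1, Ms4a7, Coro1a and Aif1) and 12 were lower, beside 22.8% of all tested genes called, 10.5% higher and 12.3% lower. The lower genes were the 3 C1q chains, Irf8, Itgax, Cd84, Laptm5, Fcgr3, Trem2, Cd68, Gpnmb and Mpeg1. Adgre1 was at 215, 209 and 197 FPKM in osteogenic and 1171, 227 and 1136 in adipogenic medium, where library 2 was close to the osteogenic level (1.69, standard error 0.535, limma adjusted p = 0.0463). Gpnmb, a glycoprotein of lipid-laden macrophages, was at 1699, 1632 and 1688 against 466, 1151 and 485 (-1.39, standard error 0.271, limma adjusted p = 0.00764). Cd14 was at 24.9, 24.7 and 23.7 against 269, 26.2 and 267, so libraries 1 and 3 were far above every osteogenic control and library 2 just above them (2.30, standard error 0.787, limma adjusted p = 0.0594). Without library 2 Cd14 was called higher (limma adjusted p = 0.000149). The groups did not overlap for 6 higher and 11 lower genes, while 34.4% of all tested genes did not overlap, 16.2% higher and 18.3% lower. Without control adipogenic library 2, 35 genes were called, 22 higher and 13 lower, beside 48.0%. Leaving out one of the other 5 control libraries gave 7 to 10, beside 10.7% to 12.4%. Under TPM 15 were called, beside 16.3% of all tested genes, and the share of calls of all genes that were higher went from 46.1% to 30.6%.

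In knockout libraries 13 of the 37 genes were called, all of them lower in adipogenic medium, beside 27.9% of all tested genes called, 13.9% higher and 14% lower. By limma 0 genes were higher, also at an unadjusted p under 0.05, where 17 were lower. At that level 2547 of all 12871 tested genes were higher and 2548 lower. Voom called 0 higher and 10 lower, beside 26.5% of all tested genes. The 13 were Lyz2, Fcgr2b, Itgb2, Itgax, Ms4a7, Aif1, Mpeg1, Irf8, Cd53, Laptm5, Cd84, Tyrobp and C1qc. Fcgr2b was at 36.8, 41.1 and 36.3 in osteogenic and 14.4, 8.81 and 9.20 in adipogenic medium (-1.76, standard error 0.201, limma adjusted p = 0.000191), and Lyz2 at 11249, 11033 and 11056 against 5010.3, 3845 and 3986 (-1.39, limma adjusted p = 0.00724). Both were lower in every adipogenic library. Cd14 was the 1 gene with all 3 adipogenic libraries above the osteogenic ones, at 121, 32.4 and 37.8 against 14.8, 15.1 and 16.5, and was not called (1.72, limma adjusted p = 0.133). In all, 24 genes had every adipogenic library below every osteogenic one, while 52.5% of all tested genes did not overlap, 26% higher and 26.5% lower. Csf1r was at 226, 182 and 178 against 186, 187 and 188 and overlapped (0.05, limma adjusted p = 0.814). With only the 6 knockout libraries in the fit 23 were called, 1 higher and 22 lower, beside 37.4% of all tested genes. Under TPM 11 were called, beside 20.1%, with the share of higher calls of all genes at 65.5% in place of 49.7%.

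**Figure D5:**
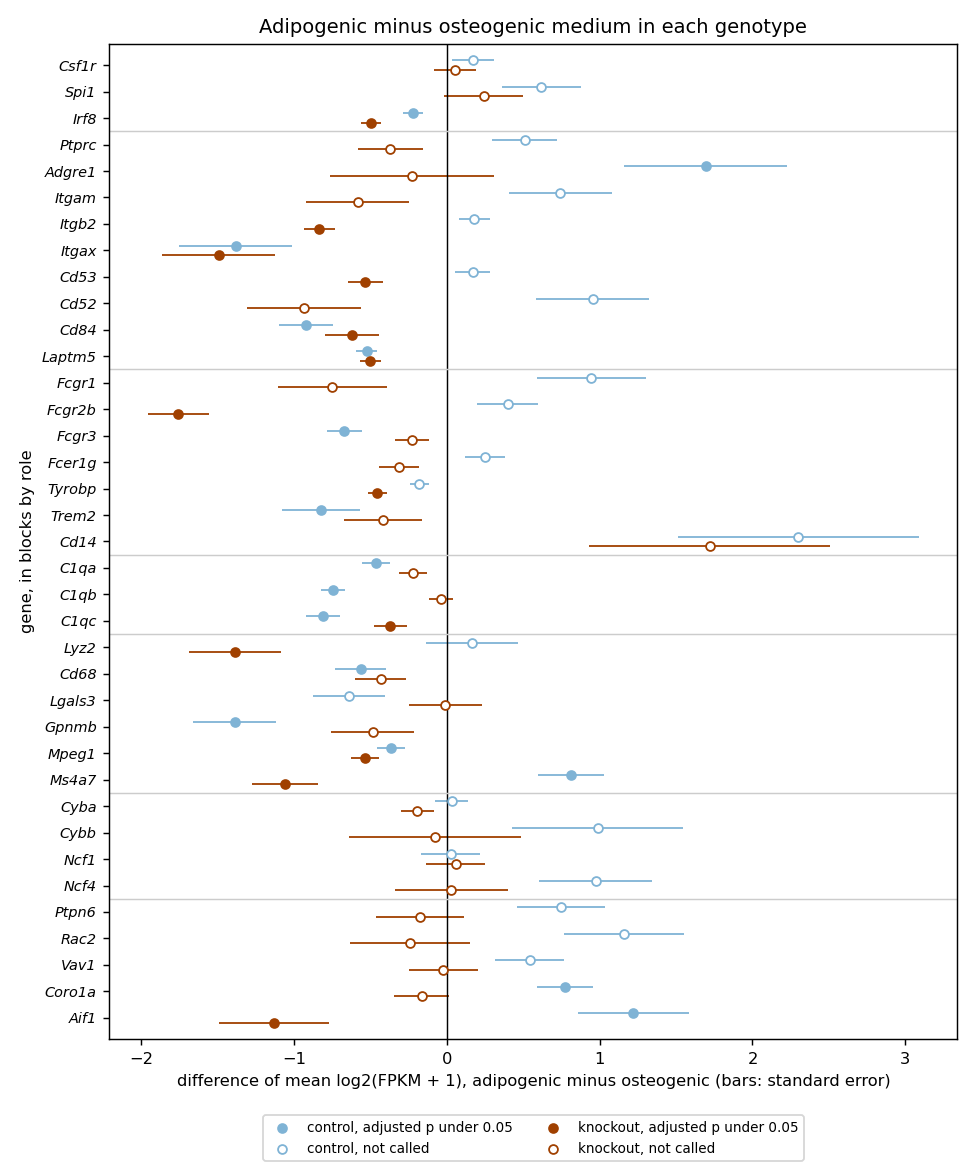
Points give the difference of mean log2(FPKM + 1), adipogenic minus osteogenic, for each gene in control (light blue) and knockout (orange) libraries, with bars for the standard error of the limma fit over 12 libraries and filled points for an adjusted p under 0.05. In knockout libraries all 13 filled points lie left of 0, and in control libraries 12 lie left and 4 right.

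Partners of these genes were read from a list of 28 kinases, adaptors and actin regulators of CSF1R, DAP12 and Fc receptor signaling, all of which were tested. In osteogenic medium 6 of the 28 were called, all lower in knockout libraries, beside 9.09% of all tested genes called and 4.15% lower. The tyrosine kinase gene Btk (-0.22), the kinase subunit gene Pik3cd (-0.30) and Was, which encodes the actin regulator of Wiskott-Aldrich syndrome (-0.40), were lower in both media. In adipogenic medium 17 were lower and 2 were higher, beside 16.5% and 16.7% of all tested genes. The 2 higher were the ligands of CSF1R, Csf1 and Il34. Csf1 was at 128, 161 and 126 FPKM in control and 310, 282 and 291 in the libraries labelled knockout, with no overlap and a log2 difference of 1.09 (standard error 0.0847, limma adjusted p = 1.77e-05), while its receptor Csf1r was lower. In osteogenic medium Csf1 was at 136 to 138 in control and 155 to 166 in knockout libraries (0.22, limma adjusted p = 0.148). Il34 stands outside the rule for named genes and was named after its values were seen, at 3.37 to 7.54 against 7.91 to 9.60 FPKM in adipogenic medium (0.79, limma adjusted p = 0.0138).

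A list of 22 other macrophage markers, of which 19 were tested, gave 1 higher and 9 lower in osteogenic and 3 higher and 7 lower in adipogenic medium. Ctss, a lysosomal protease with a mean of 1539 FPKM over the libraries, was lower in the osteogenic knockout libraries (-0.37, limma adjusted p = 0.00898) and differed by -0.07 in adipogenic medium (limma adjusted p = 0.466). Mertk, the receptor by which macrophages bind apoptotic cells, was at 83.0 to 86.6 against 51.2 to 52.7 in osteogenic medium (-0.70, limma adjusted p = 0.000169) and at 37.7 to 45.8 against 56.3 to 60.9 in adipogenic medium (0.49, limma adjusted p = 0.00036). Tlr7, a sensor of RNA, followed the same order, with -1.21 in osteogenic and 0.82 in adipogenic medium (limma adjusted p = 0.00063 and 0.00142). Slc11a1, a metal transporter of phagosomes, and Hcls1, an actin regulator, were lower in adipogenic medium (-1.99 and -1.59, limma adjusted p = 0.000868 and 0.0189). Folr2, a folate receptor, was higher (0.60 and 0.46) and Pld4 (-0.49 and -0.98) and Cd37 (-0.30 and -0.36) were lower in both.

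Sums of marker lists of other cell types differed as well. The osteoclast list summed to 87.3 to 91.5 FPKM in control and 118 to 121 in knockout osteogenic libraries, with Atp6v0d2, a proton pump subunit, at 35.0 to 37.6 against 55.1 to 59.5, and 0 of its 6 tested genes were called there by limma, 2 of them at an unadjusted p under 0.05. In adipogenic medium the list summed to 87.2 to 90.3 in control and 74.5 to 81.0 in the libraries labelled knockout, where 3 of the 6 were lower. Atp6v0d2 was at 2.11, 36.2 and 2.61 in control and 16.3, 30.2 and 29.7 in the libraries labelled knockout, the order of libraries seen for Gpnmb and Itgax. The endothelial list summed to 3.00 to 3.09 FPKM in control and 8.44 to 9.05 in knockout osteogenic libraries, and to 4.09 to 4.95 against 6.78 to 8.83 in adipogenic libraries. Of its 8 genes, 0 were at or above 1 FPKM in all libraries and 4 passed the filter. Of these 4, 3 were called higher in osteogenic and 2 in adipogenic medium. A gene this near the filter can pass it through its higher group alone, so these calls are not support for a difference. The part of osteoclasts and endothelial cells was not tested. The mesenchymal stromal list summed to 1338 to 1520 FPKM in control and 1501 to 1659 in knockout osteogenic libraries, and to 1718 to 2023 and 1855 to 1909 in the adipogenic ones. Of its 14 tested genes 5 were higher in osteogenic medium, and 6 were higher and 3 lower in adipogenic medium. The counts of these lists stand beside all tested genes, of which 4.94% were higher and 4.15% lower in osteogenic medium. In adipogenic medium these shares were 16.7% and 16.5%.

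The genes most like the group over the 12 libraries were found by Pearson's r with the mean log2(FPKM + 1) of the 37, as a description only, since the libraries share genotype, medium and the libraries that stand apart. The 10 highest were Abr (r = 0.99), Arhgap31 (0.99), Mitf (0.98), Cnpy3 (0.98), AB124611 (0.98), Slamf7 (0.98), Reep5 (0.98), Unc93b1 (0.98), Ptpre (0.98) and Arhgef2 (0.98). Mitf encodes a transcription factor of lysosomal genes and osteoclasts, and Unc93b1 brings nucleic acid sensing Toll-like receptors to the endosome. Their mean levels ran from 5.90 FPKM for Mitf to 114 for Unc93b1.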

How the data were processed

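The data are RNA-seq of 12 mouse libraries in 4 groups of 3, grouped by the sample labels. The authors deposited 1 table of FPKM with a column per library. The submitters' processing notes name Bowtie 0.12.2 and build mm9, whereas the paper's software list names HISAT2 and Ballgown. Strand and annotation are not given in the sources used here. Identifiers and exonic lengths were those of GENCODE M21 (GRCm38), which named 54409 of 54532 genes (99.8%). Multiplied by these lengths, 98.2% to 98.4% of values under 30 fragments were whole within 0.02 of a fragment, which gave each library's depth. Promoters were taken from RefSeq (GRCm38.p6).

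Genes were kept at 1 FPKM or more in 3 or more libraries and tested with limma 3.58.1 in R 4.3.3 on log2(FPKM + 1), which understates changes of low genes, with a mean-variance trend, 4 group means and 1 spread over all 12 libraries, and Benjamini-Hochberg adjustment over all genes tested at 0.05. The script was tested on simulated data. Results were recomputed without the filter, with a pseudocount of 0.1, as TPM, with median ratio scaling, without the trend, in the 6 libraries compared, with voom on the recovered fragments, with a replicate block and with each library left out. Leaving out both libraries that stand apart was added after seeing the data. Python 3.11.15 and matplotlib 3.10.9 drew the figures.

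Named were the 37 genes, Chd7, the 3 genes of highest mean FPKM of the signaling and the other macrophage list and those called in both genotype comparisons, the 2 highest of other lists, and the 10 most like the group. Markers listed at 0 or under 1 FPKM, Thy1, Cd4 and Il34 are named beyond this rule. The 37 genes and all lists were chosen with earlier results of these data known.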

Additional observations from a re-analysis of the deposited data

Results flagged for a closer look

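For 11 of the 37 genes the difference between knockout and control depended on the medium in the limma interaction test at an adjusted p under 0.05. On the log2 scale, adipogenic minus osteogenic, the difference of differences was -2.35 for Aif1, -2.15 for Fcgr2b, -1.89 for Cd52, -1.87 for Ms4a7, -1.70 for Fcgr1, -1.55 for Lyz2, -1.02 for Itgb2, -0.94 for Coro1a, -0.70 for Cd53 and -0.27 for Tyrobp. C1qb differed in the other direction, by 0.70. Fcgr2b and C1qb were called with opposite signs in the media with all libraries in the fit. With only the 6 adipogenic libraries in the fit, neither was called in adipogenic medium (limma adjusted p = 0.0742 and 0.0806). The osteogenic call of C1qb was kept in 5 of 15 alternatives. Control adipogenic library 2 enters all 11 values, and without it 33 of the 37 genes were called, beside 42.3% of all tested genes in place of 20.4%. Groups of 3 libraries are too small for a test of single outlying samples.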

How the results depend on the processing

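Of 2960 recomputed values of single genes, 2482 kept direction and side of the threshold, 196 passed it newly, 232 no longer passed it and 50 changed sign. With all libraries and the reported settings, those 50 had an adjusted p of 0.379 or more and a size of 0.17 or less. Of them, 5 were called with the other sign: the interactions of Itgax and Ncf1 without control adipogenic 2 (0.46 and -0.26, limma adjusted p = 0.0205 and 0.0265) or without both libraries that stand apart, and Ncf4 between media in knockout libraries without both. The cause of each change was not tested.

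The number of the 37 genes called for knockout against control in osteogenic medium (5) was 2 without the filter, 3 under TPM, 31 in the 6 libraries compared, 29 without control adipogenic 2 and knockout adipogenic 1 together, and 1 to 2 with any osteogenic library left out. In adipogenic medium (25) it was 11 in the 6 libraries and 18 to 37 with one left out. Between media it was, in control libraries (16), 8 without the filter, 5 in the 6 libraries, 35 without both libraries and 7 to 35 with one left out. In knockout libraries (13) it was 23 in the 6 libraries and 30 without both. For the interaction (11) it was 6 without the filter, 35 without both and 6 to 33 with one left out. Apart from the replicate block in osteogenic medium, other counts stayed within 1.5 times. All-gene counts followed, at 2.89% and 26.6% of genes in osteogenic medium without the filter and in the 6 libraries. With 1 library left out they were 4.08% to 5.17% in osteogenic and 21.4% to 51.2% in adipogenic medium. They were then 10.7% to 48.0% between media in control libraries and 13.8% to 42.3% for the interaction. Without both libraries that stand apart they were 28.3% in osteogenic medium and 45.7% for the interaction. Between media they were then 50.5% in control and 42.4% in knockout libraries. Under TPM they were 4.08% in osteogenic medium. Between media in control libraries they were 6.68% without the filter and 3.81% in the 6 libraries, and for the interaction 6.79% without the filter.

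The replicate block gave 3, 27, 12, 12 and 11 calls in these 5 comparisons, beside 5.78%, 30.2%, 15.1%, 22.4% and 16.9% of all tested genes. Numbers did not pair the libraries throughout. Between genotypes, deviations of same-numbered libraries correlated at -0.04, 0.06 and -0.03 in osteogenic and 0.47, 0.40 and -0.29 in adipogenic medium. Means with the other numbers were 0.02, -0.03 and 0.01 and -0.32, -0.09 and 0.06. Between media, same-numbered libraries correlated at -0.06, 0.09 and 0.04 in control and 0.03, -0.01 and -0.02 in knockout libraries.

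Sign changes between media in control libraries were Cyba (-0.10 under TPM, -0.048 with voom) and Ncf1 (-0.11 and -0.058). In knockout libraries, TPM and voom gave 0.024 and 0.0093 for C1qb, 0.055 and 0.040 for Lgals3 and 0.041 and 0.027 for Vav1, and without both libraries values were -0.056 for Csf1r, 0.036 for Lgals3, -0.0093 for Ncf1 and -0.35 for Ncf4. For the interaction, Csf1r was 0.078 under TPM and 0.012 with voom, Mpeg1 was 0.029 under TPM, Ncf1 was -0.33 without both, and Itgax was 0.11 with the pseudocount of 0.1, 0.0093 under TPM, 0.23 with voom and 0.50 without both.

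With 1 library left out, signs varied for Fcgr1 (-0.19 to 0.0078) in knockout against control in osteogenic medium, and for Cd84 (-0.097 to 0.29) and Cd68 (-0.14 to 0.27) in adipogenic medium. Between media they varied for Lyz2 (-0.077 to 0.62), Cyba (-0.035 to 0.14) and Ncf1 (-0.15 to 0.32) in control libraries, and for Csf1r (-0.056 to 0.11), Cybb (-0.54 to 0.18), Lgals3 (-0.049 to 0.036), Ncf1 (-0.0093 to 0.10), Ncf4 (-0.35 to 0.27) and Vav1 (-0.18 to 0.071) in knockout libraries. For the interaction they varied for Cd68 (-0.018 to 0.39), Itgax (-0.50 to 0.46), Laptm5 (-0.058 to 0.090) and Ncf1 (-0.26 to 0.20).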
